A study of Mus musculus with 13 samples.

Results

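Aminoacyl-tRNA synthetases are the enzymes that load each amino acid onto its transfer RNA. Their 37 genes were taken from the 35906 genes of the annotation by symbol alone: a 1-letter amino acid code followed by ars, with or without a final 1 or 2, together with Eprs, Farsa and Farsb. Of these, 20 encode cytosolic enzymes and 17, those whose symbol ends in 2, encode mitochondrial ones. All 37 passed the filter on low counts in every fit, and the largest estimated count in a library was 68366 (Lars2).

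Every protein made in a cell draws on these enzymes, and the cytosol and the mitochondrion each keep their own set, both encoded in the nucleus. Gars and Kars are exceptions in mammals, since each gene supplies both compartments, and Eprs is a fused enzyme that charges both glutamate and proline. Resting T cells make little protein, and antigen receptor and CD28 signals switch on amino acid uptake and translation, with MYC, mTORC1 and ATF4 among the known regulators. ATF4 is a transcription factor of the amino acid response that binds promoters of several cytosolic synthetase genes.

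RNA sequencing covered 13 libraries, each from M2 (CD69-MHCI+) CD4 single-positive thymocytes sorted from 1 mouse that carried the Lm54 T cell receptor transgene on a Rag1-/- background. Unstimulated cells came from 4 control mice, labelled Ctsl fl/fl and WT, and from 5 CtslΔTEC mice, in which Foxn1-cre deletes Ctsl (cathepsin L) in thymic epithelial cells and not in the sequenced thymocytes. Cells stimulated for 4 h with anti-CD28 at 250 ng/ml and the LLO:Iab monomer at 1 µg/ml came from 2 WT and 2 CtslΔTEC mice. The C57BL/6J animals were 8 to 12 weeks old and of both sexes. The questions were how the synthetase mRNAs responded to stimulation, and whether selection on an epithelium without Ctsl changed their level or response.

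Estimated counts totalled 25692380 to 39127833 in the unstimulated mice, and after stimulation ran from 8085463 (WT mouse 5) to 27184520 (WT mouse 6). Ctsl, which the sorted cells keep, measured 6.31 to 8.84 CPM (counts scaled to the size of the library) in unstimulated WT, 11.4 to 17.9 in unstimulated CtslΔTEC and 3.30 to 6.68 in stimulated libraries, and so does not check the deletion. Foxn1, the epithelial gene that drives the Cre, stayed at or below 0.0776 CPM, and Krt5 and Krt8 at or below 0.105. Other markers of thymic epithelium were detected. Epcam measured 1.30 to 3.60 CPM in unstimulated and 9.26 to 12.9 in stimulated libraries. Prss16 measured 3.42 to 5.52 CPM in unstimulated WT, 1.66 to 2.35 in unstimulated CtslΔTEC and 0.272 to 0.541 in stimulated libraries. Psmb11 measured 1.12 to 2.72 CPM over all libraries. The 4 stimulated libraries carry a later file date than the 9 unstimulated ones, so stimulation and file date cannot be told apart. All 8 activation genes checked rose in both genotypes, Cd69 from 43.3 to 64.8 CPM to between 2669 and 3377. Between stimulated genotypes 2 of the 8 were lower in CtslΔTEC cells (edgeR, adjusted p under 0.1), against 10.6% of all genes, and 6 did not pass. Stimulated Il2 measured 54.4 and 50.7 CPM in WT and 3.07 and 5.75 CPM in CtslΔTEC mice, while 5 of the 8 fold changes lay above 0. In the difference between the responses (interaction) 2 were lower, against 4.88% of all genes. T cell markers summed to 4967 CPM or more in every library and the 5 B cell markers to 1.54 or less. The 7 myeloid markers summed to 7.22 to 25.1 CPM. The 4 erythroid markers summed to 28.2 to 116 CPM in unstimulated and 1.90 to 13.1 CPM in stimulated libraries. Markers of the preceding double-positive stage summed to 52.5 to 76.9 CPM in unstimulated WT and 223 to 299 in unstimulated CtslΔTEC libraries, and to 27.5 to 32.3 and 75.2 to 81.2 after stimulation. Markers of mature CD4 single-positive cells summed to 3024 to 3422 CPM in unstimulated WT and 2033 to 2392 in unstimulated CtslΔTEC libraries, and to 388 to 635 and 242 to 323 after stimulation. Their part in the results was not tested.

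In unstimulated WT cells the levels ran from 4.88 ± 0.74 TPM (a level scaled to transcript length and to the library's total; SD, n = 4) for Mars2 to 521 ± 162 for Lars2. Among the cytosolic enzymes Qars (glutamine, 136 ± 8.69 TPM) and Sars (serine, 134 ± 14.3) stood highest, with ranges that overlapped. Protein-coding transcripts took 27.8% of Qars and 99.2% of Sars TPM, so the place of Qars holds only with all transcripts counted. Nars (asparagine, 83.4 ± 9.69), Dars (aspartate, 73.4 ± 2.38) and Kars (lysine, 72.1 ± 3.52) followed and did not differ from one another beyond their spread. Aars (alanine, 16.1 ± 2.46) and Cars (cysteine, 21.3 ± 1.43) were the lowest of the cytosolic enzymes. Of 17 pairings of a cytosolic with a mitochondrial enzyme for the same amino acid, the cytosolic one had the higher TPM in 12. Cars, Hars, Iars, Lars and Tars stood below Cars2, Hars2, Iars2, Lars2 and Tars2. These levels count all transcripts. Protein-coding ones took 62.2% of Cars and 94.6% of Hars TPM, against 12.9% of Cars2 and 33.7% of Hars2. The order of Cars and Cars2, and of Hars and Hars2, does not hold on coding transcripts.

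Lars2, the mitochondrial leucine enzyme, needs to be read apart. A single transcript annotated as a target of nonsense-mediated decay took 72.1% to 97.1% of its TPM, and protein-coding transcripts took 0.522% to 8.07%. That transcript shares 26 of its 3726 stretches of 31 bases with AA474408 and 22 with Gm15564, and none with any other gene of the annotation. Its CPM ranged 2.42-fold among the 9 unstimulated mice, the widest of any member. The coefficient of variation over those 9 mice was 26.1% for Lars2, beside medians of 7.14% for the cytosolic and 8.97% for the mitochondrial class. Sums over the mitochondrial enzymes are therefore given with and without it.

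Nearly all cytosolic synthetase mRNAs were higher after stimulation. In WT cells 19 of 20 rose, by edgeR's quasi-likelihood test at an adjusted p under 0.1, against 32.9% of all 14241 genes tested. Only Qars fell (lower: 34.8% of all genes). The median log2 fold change was 1.59, or 3.01-fold, beside 0.01 over all genes. In CtslΔTEC cells the same test called 19 higher and Qars lower, with a median of 1.45, against 32.9% of all genes higher and 38.2% lower and a median of -0.06 over all genes. In bulk RNA a change in the cells sampled and a change in RNA per cell cannot be told apart.

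**Figure D1:**
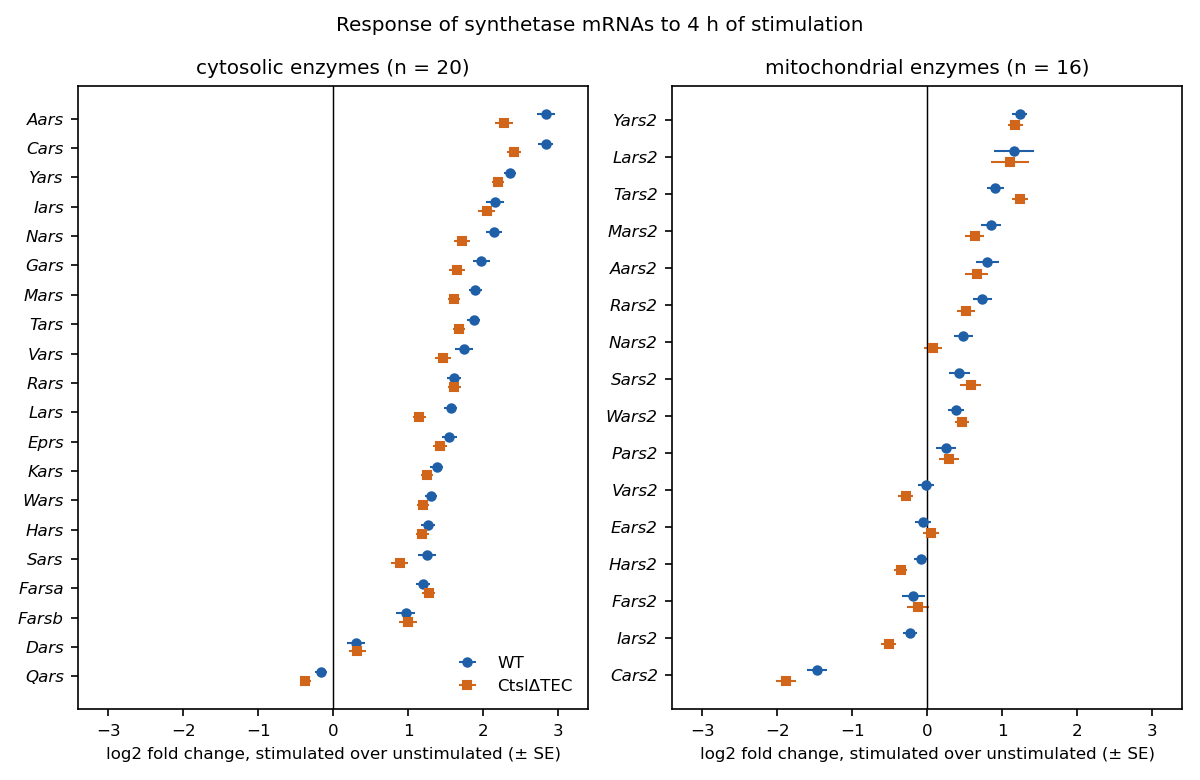
Log2 fold change of synthetase genes, stimulated over unstimulated, with its standard error, in WT (circles; 4 unstimulated and 2 stimulated mice) and CtslΔTEC cells (squares; 5 and 2). Cytosolic enzymes lie between -0.37 and 2.84 and all but Qars lie to the right of 0, while the mitochondrial enzymes plotted run from -1.88 to 1.23.

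The steepest rises were those of Aars and Cars, the cytosolic alanine and cysteine enzymes, which had the lowest cytosolic levels at rest. Aars (chr8:111033144-111057664, GRCm38) measured 52.3, 51.3, 62.0 and 49.7 CPM in unstimulated WT mice 1 to 4, and 437 and 334 CPM in stimulated mice 5 and 6. In CtslΔTEC mice it measured 47.0, 56.2, 49.3, 53.4 and 59.7 CPM unstimulated, and 279.9 and 236 CPM after stimulation. Stimulated and unstimulated libraries were far apart in both genotypes: Aars rose 7.16-fold in WT (log2 fold change 2.84, SE 0.13, adjusted p = 8.64e-11) and 4.85-fold in CtslΔTEC cells (2.28, SE 0.12, adjusted p = 2.68e-10). Aars shares 1326 bases of exon with Exosc6 on the same strand, so some reads may belong to either gene.

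Cars (chr7:143557230-143600090) measured 23.9, 24.5, 27.9 and 24.9 CPM in unstimulated WT mice, and 199.7 and 162 CPM in the stimulated ones. In CtslΔTEC mice the values were 24.3, 25.2, 25.5, 24.4 and 24.1 CPM before and 141 and 123 CPM after stimulation. The unstimulated mice of both genotypes lay between 23.9 and 27.9 CPM, far below every stimulated one, and Cars rose 7.13-fold in WT (2.83, SE 0.10, adjusted p = 6.84e-12) and 5.34-fold in CtslΔTEC cells (2.42, SE 0.09, adjusted p = 8.95e-12).

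Yars and Iars, the tyrosine and isoleucine enzymes, came next. Yars (chr4:129189760-129219607) measured 42.6, 40.2, 45.0 and 37.9 CPM in unstimulated and 225 and 200.5 CPM in stimulated WT mice, a 5.14-fold rise (2.36, SE 0.08). CtslΔTEC mice had 37.8, 37.9, 39.6, 40.8 and 38.0 CPM of Yars, then 182 and 174, a 4.59-fold rise (2.20, SE 0.08). Iars (chr13:49682100-49734267) measured 84.7, 93.4, 89.1 and 69.5 CPM, then 382 and 371, in WT mice, and 69.7, 80.4, 84.8, 93.5 and 80.8 CPM, then 342 and 335, in CtslΔTEC mice. The stimulated libraries stood above all unstimulated ones in each case, and Iars rose 4.48-fold (2.16, SE 0.12) and 4.14-fold (2.05, SE 0.11).

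The order of levels within the family shifted. From the unstimulated to the stimulated WT cells, by mean TPM, Cars went from rank 26 of 37 to 8 (159 ± 9.02 TPM after stimulation, SD, n = 2), Yars from 17 to 4 and Nars from 4 to 2. Qars went from rank 2 to 11 and Dars from 5 to 20. These ranks count all transcripts, and the protein-coding share of Yars TPM went from 46.8% to 29.2% in WT cells. On coding transcripts alone Yars rose by 2.17 (SE 0.09) on the log2 scale.

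The remaining cytosolic enzymes rose less. Nars, Gars (glycine), Mars (methionine), Tars (threonine) and Vars (valine) had log2 fold changes of 2.15, 1.98, 1.90, 1.87 and 1.75 in WT cells. Rars (arginine), Lars (leucine), Eprs, Kars, Wars (tryptophan), Hars (histidine), Sars and the paired phenylalanine subunits Farsa and Farsb lay between 1.62 and 0.97. Dars gave only 0.30 (SE 0.12, adjusted p = 0.0352) in WT and 0.32 (SE 0.11, adjusted p = 0.0202) in CtslΔTEC cells, and both calls were lost with library totals alone and without 1 stimulated library (WT mouse 5 or CtslΔTEC mouse 6). The WT call was also lost with upper-quartile factors.

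Qars (chr9:108507706-108515941) moved the other way, by little. It measured 115, 122, 116 and 129 CPM in unstimulated WT mice and 109.8 and 105 CPM in stimulated ones (log2 fold change -0.17, SE 0.08, adjusted p = 0.0766). That call was lost at an adjusted p under 0.05, with transcript length modelled, when thinned, with the Y-linked covariate, and without unstimulated WT mouse 4 (-0.13) or stimulated WT mouse 6 (-0.15). CtslΔTEC mice measured 117, 118, 109, 112 and 112 CPM, then 87.4 and 88.3 (-0.37, SE 0.08, adjusted p = 0.000501). In CPM neither genotype's stimulated libraries overlapped its unstimulated ones. In TPM stimulated WT mouse 6 (137) lay within the unstimulated WT range (124 to 145). Protein-coding transcripts took only 13.8% to 32.0% of Qars TPM, and counted alone they fell by 0.81 in WT and 2.34 in CtslΔTEC cells on the log2 scale.

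**Figure D2:**
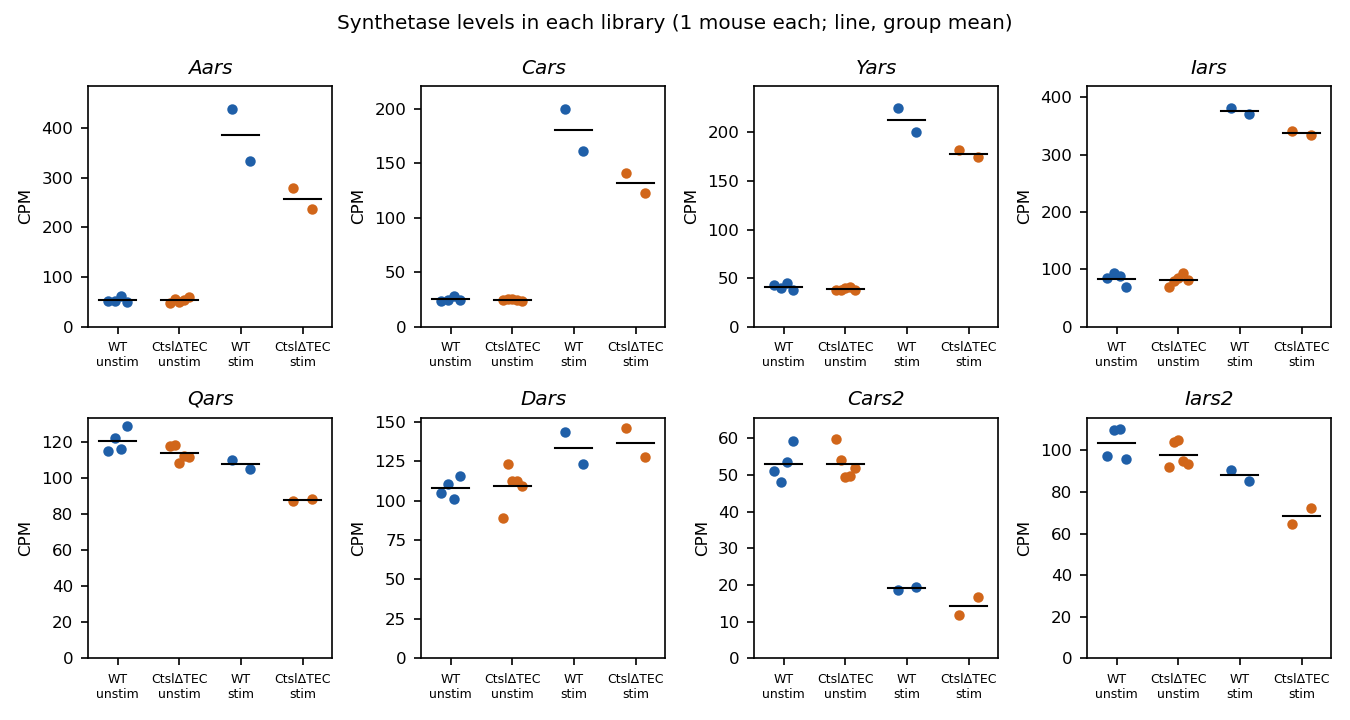
CPM of 8 synthetase genes in each of the 13 libraries (blue, WT; orange, CtslΔTEC; black line, group mean; linear axes from 0). Aars, Cars, Yars and Iars stand higher and Cars2 and Iars2 lower in all 4 stimulated libraries than in any unstimulated one, while Qars and Dars change little.

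Dars and Qars both belong to the multisynthetase complex, an assembly that holds 8 of the cytosolic synthetase genes used here (Dars, Eprs, Iars, Kars, Lars, Mars, Qars and Rars). In WT cells 7 of these 8 rose and 1 fell, with a median of 1.56, and all 12 outside the complex rose, with a median of 1.81, against 32.9% of all genes higher and 34.8% lower. Of the 3 scaffold proteins of the complex, Eef1e1 rose by 2.28 (SE 0.09), Aimp2 by 1.61 (SE 0.11) and Aimp1 by 0.45 (SE 0.12) on the log2 scale in WT cells, and all 3 also rose in CtslΔTEC cells. Split by catalytic fold, the 9 class I enzymes had a median response of 1.75 and the 10 class II enzymes one of 1.33, leaving aside Eprs, which holds a domain of each.

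The mitochondrial enzymes showed no common direction. In WT cells 9 of 17 rose, 3 fell and 5 did not pass the test, with a median log2 fold change of 0.38 (0.32 without Lars2). In CtslΔTEC cells 9 rose and 5 fell, with a median of 0.29 (0.18 without Lars2). These shares stand beside the same background of 32.9% higher and 34.8% or 38.2% lower as above. Yars2 (tyrosine) rose by 1.23 (SE 0.10) and 1.18 (SE 0.10), Tars2 (threonine) by 0.91 (SE 0.11) and 1.23 (SE 0.11), and Mars2, Aars2, Rars2, Sars2 and Wars2 by 0.38 to 0.85 in WT cells. Nars2 rose in WT cells (0.48, SE 0.13) and gave 0.08 (SE 0.12) in CtslΔTEC cells. This difference between the genotypes did not pass the interaction test (-0.41, SE 0.18, adjusted p = 0.271). Ears2, Fars2 and Pars2 passed in neither genotype except Pars2 in CtslΔTEC cells (0.29, SE 0.13, adjusted p = 0.0588). That Pars2 call was lost at an adjusted p under 0.05, with library totals alone and with upper-quartile factors. It was also lost without the filter on low counts, with transcript length modelled and when thinned.

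The falls included Cars2, the mitochondrial cysteine enzyme. Cars2 (chr8:11513977-11550783) measured 51.1, 48.2, 53.5 and 59.1 CPM in unstimulated WT mice and 18.7 and 19.5 CPM in stimulated ones. The CtslΔTEC values were 59.9, 54.2, 49.3, 49.8 and 51.9 CPM, then 11.9 and 16.6 CPM. All 4 stimulated mice stood at 19.5 CPM or less and all 9 unstimulated ones at 48.2 CPM or more, a change of -1.47 (SE 0.14, adjusted p = 2.23e-07) in WT and -1.88 (SE 0.14, adjusted p = 1.17e-08) in CtslΔTEC cells on the log2 scale. Its cytosolic counterpart Cars had risen 7.13-fold, so the pair differed in response by 4.30 on the log2 scale in both genotypes.

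Most of the TPM of Cars2 lay on transcripts not annotated as coding, and coding transcripts took at most 17.8% of it. Counted on coding transcripts alone, Cars2 changed by -2.60 and -5.52, the last from few counts.

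Iars2 (isoleucine, chr1:185284726-185329396) fell slightly, from 97.4, 109.8, 110.4 and 96.0 CPM to 90.8 and 85.5 in WT mice (-0.23, SE 0.10, adjusted p = 0.0464). In CtslΔTEC mice it fell from 92.0, 104, 105, 94.9 and 93.7 CPM to 64.8 and 72.1 (-0.52, SE 0.09, adjusted p = 0.000178). Hars2 and Vars2 fell in CtslΔTEC cells alone by this test, at -0.36 (SE 0.09) and -0.29 (SE 0.10), beside -0.09 and -0.01 in WT cells, and neither difference between the genotypes passed the interaction test (adjusted p = 0.323 and 0.372). Vars2 turned to 0.31 in CtslΔTEC cells when transcript length was modelled, and the Hars2 call was lost there. The Vars2 call was also lost when thinned.

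Lars2 rose by 1.16 (SE 0.27) in WT and 1.10 (SE 0.26) in CtslΔTEC cells, but the direction rested on the transcript named above. On protein-coding transcripts alone it fell by 1.09 in WT cells on the log2 scale (SE 0.25, adjusted p = 0.0016) and gave 0.22 (SE 0.23) in CtslΔTEC cells. Wars2 likewise gave -0.03 in WT cells on coding transcripts alone. Apart from Lars2, Wars2 and Vars2, every called response kept its direction under every alternative run.

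**Figure D3:**
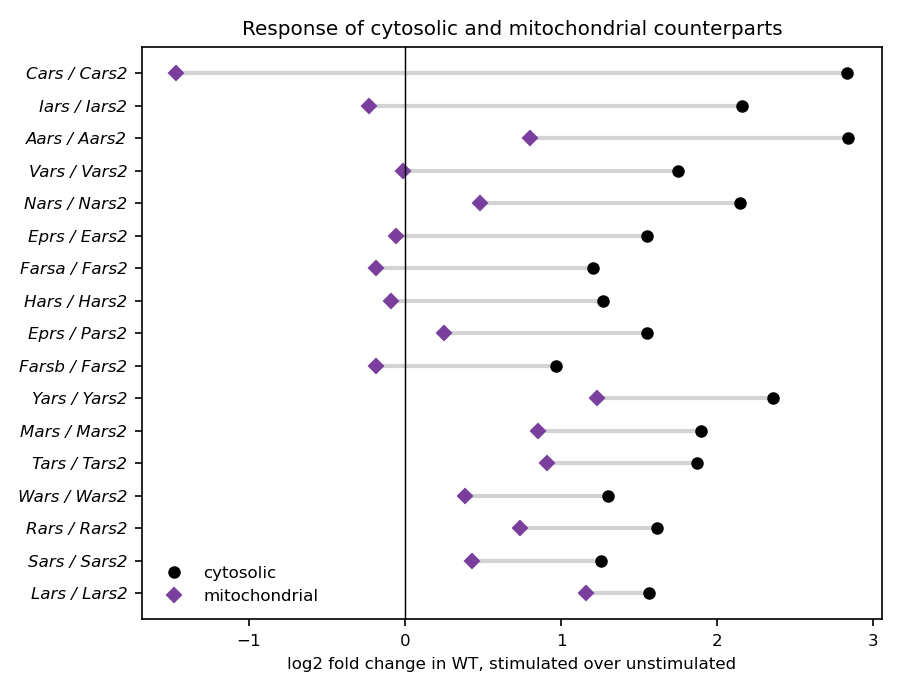
Log2 fold change in WT cells, stimulated over unstimulated, of the cytosolic (circle) and mitochondrial (diamond) enzyme for the same amino acid, joined by a bar and ordered by their difference. The cytosolic value is the larger in all 17 pairings, from 0.41 for Lars and Lars2 to 4.30 for Cars and Cars2.

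Within each amino acid the cytosolic enzyme had the larger response in 17 of 17 pairings in WT and in 17 of 17 in CtslΔTEC cells. Eprs and Fars2 enter 2 pairings each, so these are not independent. The narrowest gaps in WT cells were those of leucine (0.41, where Lars2 is uncertain) and serine (0.83), and the widest were cysteine (4.30) and isoleucine (2.39). In CtslΔTEC cells the gap was 0.05 for leucine, smaller than the standard error of Lars2 (0.26), and 0.31 for serine and 0.45 for threonine.

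Summed over the class, cytosolic synthetase TPM ran from 1009 to 1116 in unstimulated WT and from 1018 to 1108 in unstimulated CtslΔTEC libraries. After stimulation it reached 2952 and 2835 in WT and 2514 and 2415 in CtslΔTEC libraries. The 16 mitochondrial enzymes without Lars2 summed to 336 to 371 and 348 to 385 TPM before stimulation, and to 363 and 426 in WT and 389 and 433 in CtslΔTEC libraries after it. The ratio of the cytosolic to this mitochondrial sum rose from 3.04 ± 0.08 (SD, n = 4) to 7.39 ± 1.04 (n = 2) in WT and from 2.89 ± 0.17 (n = 5) to 6.02 ± 0.63 (n = 2) in CtslΔTEC cells. With Lars2 included the ratios were 1.25 ± 0.22 and 2.09 ± 0.32 in WT, and 1.24 ± 0.15 and 1.96 ± 0.32 in CtslΔTEC cells.

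**Figure D4:**
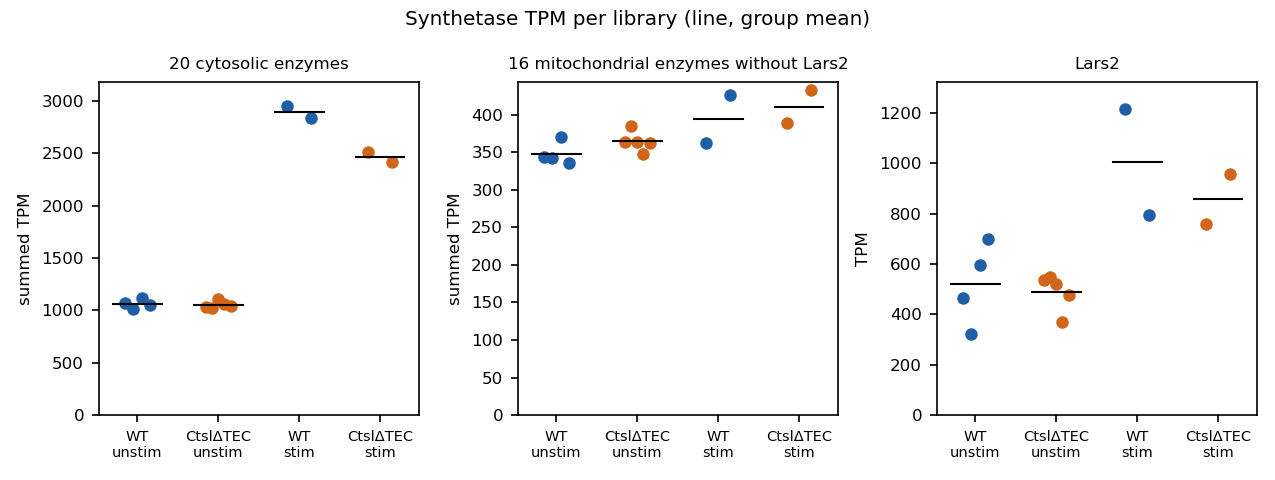
Summed TPM of the 20 cytosolic enzymes, of 16 mitochondrial enzymes without Lars2, and TPM of Lars2 in each library (blue, WT; orange, CtslΔTEC; black line, group mean; linear axes from 0). Cytosolic sums lie between 1009 and 1116 in all 9 unstimulated libraries and between 2415 and 2952 in the 4 stimulated ones, with both CtslΔTEC libraries below both WT libraries.

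Promoter sequence was examined for the core that ATF4 binds, TGATGNAA on either strand, in windows from 250 bases before to 50 after the RefSeq start (GRCm38.p6). Windows were supplied for 27 of the 37 genes. Cars, Hars, Hars2, Lars, Nars, Pars2, Rars, Vars and Wars were among those with no entry. The core was present for 5 of 13 cytosolic genes with a window (38.5%; Aars, Gars, Iars, Tars and Yars), for 0 of 14 mitochondrial ones and in 3.97% of all 32851 windows. Members are counted by gene, with a match in any window, and the background by single window, so the shares are not strictly alike. The 3 stretches below, each 60 bases, are shown because their matches lie before the start, while those of Yars and Iars lie after it. Aars holds another match, after its start, that the stretch does not show. The core is in capitals and stands here as its reverse complement.
Gars, chr6:55037941-55038000, plus strand: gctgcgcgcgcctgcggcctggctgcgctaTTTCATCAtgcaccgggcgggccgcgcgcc
Aars, chr8:111033704-111033763, plus strand: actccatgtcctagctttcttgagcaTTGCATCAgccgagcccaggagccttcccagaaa
Tars, chr15:11399659-11399718, minus strand: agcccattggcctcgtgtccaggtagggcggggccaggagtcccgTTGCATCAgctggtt

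The 5 genes with the core had WT responses of 1.87 to 2.84 on the log2 scale (median 2.16), and the 8 other cytosolic genes with a window had -0.17 to 1.90 (median 1.23). In CtslΔTEC cells the medians were 2.05 and 1.13. These are descriptions of a small set, and a match of letters is not a binding site. The E-box that MYC and MAX bind, CACGTG, was present for 4 of 13 cytosolic genes (30.8%; Aars, Farsb, Iars and Tars), for 1 of 14 mitochondrial ones (7.14%; Ears2) and in 7.15% of all windows.

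Of 14 genes for other steps of tRNA charging and processing, 8 rose and 5 fell in each genotype, against 32.9% of all genes higher in each and 34.8% (WT) or 38.2% (CtslΔTEC) lower, so the falls are near the background share. The largest rises in WT cells were those of the tRNA exporter Xpot (1.92, SE 0.08), the tRNA 3′ processing enzyme Elac2 (1.51, SE 0.08) and Aarsd1 (1.19, SE 0.14), which edits mischarged alanine tRNA. Of 26 genes of the amino acid response and uptake tested, 22 rose and 2 fell in WT and 17 rose and 3 fell in CtslΔTEC cells, beside the same shares of all genes. Atf4 rose by 1.78 (SE 0.34) and 1.58 (SE 0.32), and the leucine carrier subunit Slc7a5 by 3.96 (SE 0.11) and 3.75 (SE 0.10). Myc rose by 3.76 (SE 0.13) and 4.13 (SE 0.12).

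Without stimulation no synthetase mRNA passed the test between the genotypes. By edgeR 0 of 37 were called, against 6.42% of all 13152 genes higher and 8.36% lower in CtslΔTEC cells, and DESeq2 called 2 (Mars2 higher, Wars lower). At an unadjusted p under 0.05 there were 5 by edgeR, against 24.1% of all genes in either direction: Hars (-0.16, SE 0.06), Wars (-0.15, SE 0.06) and Sars (-0.15, SE 0.06) lower, and Mars2 (0.29, SE 0.11) and Pars2 (0.21, SE 0.09) higher. The fitted values were small but leaned one way in the cytosolic class, where 18 of 20 were below 0, against 6305 of all 13152 genes. The median was -0.09, beside 0.01 over all genes and 0.00 for the mitochondrial class. Mean TPM did not share this lean throughout: Yars measured 35.0 in WT and 38.0 in CtslΔTEC cells. Summed cytosolic TPM was 1060 ± 45 in WT (SD, n = 4) and 1053 ± 35 in CtslΔTEC cells (n = 5). Only 1 of the 4 unstimulated WT mice and all 5 CtslΔTEC mice expressed Y-linked genes (Ddx3y 161 CPM and 125 to 206 CPM, against at most 0.058 in the other WT mice). With this as a covariate 0 members were called, but the calls over all genes also dropped, to 0.92% higher and 2.36% lower. The genotypes were also spread unevenly over 2 file dates, and with file date as a term Mars2 (higher) and Sars (lower) were called, against 9.42% of all genes higher and 11.2% lower, and on the second date alone Mars2 was.

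After stimulation 10 of the 37 were lower in CtslΔTEC than in WT cells and 0 were higher, against 10.6% of all genes lower and 2.77% higher. They were 9 of the 20 cytosolic enzymes (Aars, Cars, Gars, Lars, Mars, Nars, Qars, Sars and Vars) and Iars2. No alternative called a cytosolic enzyme higher, but 1 mitochondrial enzyme was called higher on coding transcripts (Lars2), with transcript length modelled (Tars2) and when thinned (Tars2), and on coding transcripts 4 mitochondrial enzymes were lower. The cytosolic median was -0.26 and the mitochondrial one -0.12, beside -0.05 over all genes. In all, 18 of 20 cytosolic values lay below 0, against 7974 of all 14241 genes.

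Aars, whose values are given above, showed the largest called difference, -0.58 (SE 0.15, adjusted p = 0.0255), or 1.49-fold lower. Sars (chr3:108424865-108445209) measured 404 and 276 CPM in stimulated WT mice 5 and 6, and 254 and 221 CPM in stimulated CtslΔTEC mice 6 and 7 (-0.52, SE 0.14, adjusted p = 0.0355). In unstimulated mice it had measured 138, 130.2, 149 and 152 CPM in WT and 129, 123, 134, 128 and 127 CPM in CtslΔTEC cells. Both CtslΔTEC libraries stood below both WT libraries, but the gap between the WT mice was wider than that between the lower WT mouse and the CtslΔTEC mice.

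Nars measured 607 and 436 CPM in the stimulated WT mice and 402 and 353 CPM in the CtslΔTEC mice (-0.46, SE 0.13, adjusted p = 0.0417). Before stimulation its levels were 119, 113, 119 and 119 CPM in WT and 102, 113, 119.8, 119 and 119 CPM in CtslΔTEC mice. Cars differed by -0.45 (SE 0.11, adjusted p = 0.0216), with both CtslΔTEC libraries again below both WT libraries. The mitochondrial counterparts gave -0.12 (Aars2), 0.00 (Sars2), -0.39 (Nars2) and -0.41 (Cars2), none of which passed.

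Much of this rested on 1 library. In CPM stimulated WT mouse 5, the shallowest, stood above WT mouse 6 for 20 of 20 cytosolic enzymes (median log2 ratio 0.23). The same held for only 8 of 17 mitochondrial enzymes and 49.0% of all genes. In TPM some cytosolic enzymes went the other way, among them Qars (105 in mouse 5 and 137 in mouse 6), Iars (124 and 133) and Yars (213 and 233). Mouse 5 was still the higher in summed cytosolic TPM (2952, against 2835). Without it 0 of the 37 were called and the cytosolic median was -0.18. Without WT mouse 6 there were 15 (13 cytosolic), with a median of -0.35, without CtslΔTEC mouse 6 there were 4 and without CtslΔTEC mouse 7 there were 3. Over all genes 5.68%, 10.7%, 5.31% and 6.99% were called lower in these 4 fits. The 2 mice of each stimulated group also differed in Y-linked expression. Ddx3y measured 0.26 and 189 CPM in WT mice 5 and 6, and 0.09 and 242 CPM in CtslΔTEC mice 6 and 7. In the WT mice this cannot be told apart from depth, and the responses and the interaction are unbalanced in it too. With it as a covariate 9 cytosolic and 2 mitochondrial enzymes were lower, against 10.4% of all genes. With the 4 stimulated libraries fitted alone only Aars was called, against 6.70% of all genes lower. Even so, both CtslΔTEC libraries lay below both WT libraries in CPM for 16 of 20 cytosolic enzymes, the exceptions being Dars, Farsa, Farsb and Rars. This was so for 7 of 17 mitochondrial ones and 30.2% of all genes.

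**Figure D5:**
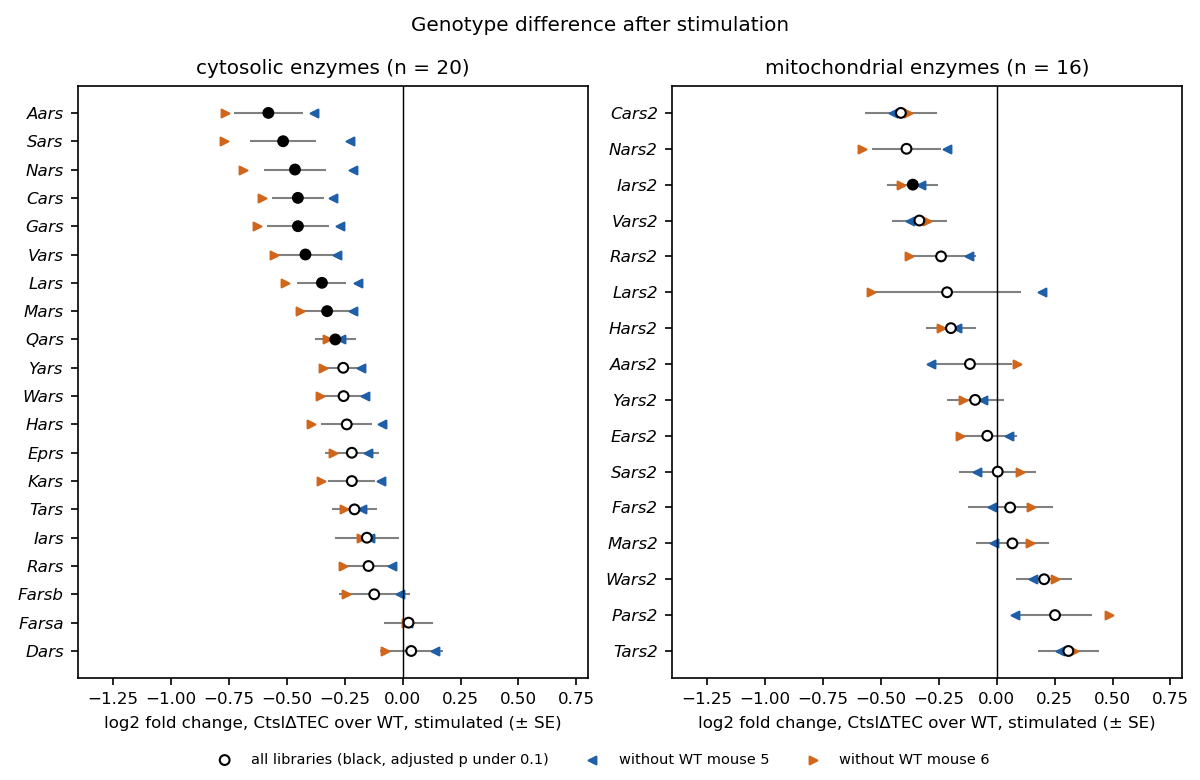
Log2 fold change of CtslΔTEC over WT after stimulation for synthetase genes (2 mice each; black circles passed an adjusted p under 0.1, bars are standard errors), with the values obtained without WT mouse 5 (blue triangles) or WT mouse 6 (orange triangles). The 20 cytosolic values lie between -0.58 and 0.04 with all libraries, and for Aars, Sars and Nars the value without WT mouse 5 is closer to 0.

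Some other genes of the amino acid response were also lower in stimulated CtslΔTEC cells. Of 26 tested, 11 were lower, 0 higher and 15 did not pass, with a median of -0.49, against 10.6% of all genes lower, 2.77% higher and a median of -0.05. The 3 with the largest difference were Chac1, a glutathione-degrading enzyme at 1.98 and 1.09 CPM in WT and 0.18 and 0 CPM in CtslΔTEC mice, Asns (asparagine synthetase; 5.43 and 1.90 against 0.81 and 0.57 CPM) and Trib3, a pseudokinase (13.2 and 4.66 against 1.99 and 1.77 CPM). Chac1 and Asns lay near the floor. Of the better expressed genes, Sesn2 (-2.10, SE 0.25, adjusted p = 0.000197) and Phgdh (-1.47, SE 0.26, adjusted p = 0.00335) were also lower. For each of these genes WT mouse 5 was again the highest library. In the interaction 4 of the 26 were lower and 0 higher, against 4.88% and 1.13% of all genes. In unstimulated cells 6 of 23 tested genes of the list were lower in CtslΔTEC mice and 2 higher, against 8.36% and 6.42% of all genes, and Trib3 was among the lower (-0.89, SE 0.25, adjusted p = 0.0441). Atf4 itself measured 469 and 376 CPM in WT and 363 and 356 CPM in CtslΔTEC mice and did not pass, at -0.23 (SE 0.40, adjusted p = 0.803). Nor did Myc, at 0.24 (SE 0.15, adjusted p = 0.366), or the 3 scaffold genes of the multisynthetase complex.

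Whether the response itself differed between genotypes was asked with the interaction term. Only Lars was called (-0.42, SE 0.13, adjusted p = 0.096), against 4.88% of all genes lower and 1.13% higher. Lars went from 77.2, 76.7, 75.1 and 73.3 CPM to 249 and 199.7 in WT mice, a 2.96-fold rise. In CtslΔTEC mice it went from 77.0, 86.6, 78.8, 77.8 and 75.6 CPM to 179 and 173, a 2.22-fold rise. The unstimulated groups overlapped and the stimulated ones did not. Aars gave a larger interaction of -0.56 (SE 0.18, adjusted p = 0.115) that did not pass, and the medians were -0.18 for the cytosolic and -0.15 for the mitochondrial class, beside -0.06 over all genes. The Lars call held in 2 of the 13 fits that each left out 1 library, without stimulated WT mouse 6 (-0.57) or unstimulated CtslΔTEC mouse 1 (-0.42), and was lost in the other 11, with -0.26 without stimulated WT mouse 5. It was also lost at an adjusted p under 0.05, with upper-quartile factors, without the filter on low counts, on coding transcripts, with transcript length modelled and when thinned to the smallest total, and held with DESeq2, library totals and the Y-linked covariate.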

How the data were processed

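Per-transcript estimated counts (expected counts, not normalized), TPM and effective lengths were deposited, made by the authors with kallisto 0.48 and Ensembl release 106. Effective lengths entered only the transcript length alternative. The labels give polyA RNA, the methods rRNA depletion, and library strand was not given in the sources used here. Of 117497 transcripts, 116397 were paired with a gene through GENCODE M21 (GRCm38); the others took at most 0.461% of the counts. Gene sums were rounded, filtered with filterByExpr, scaled by TMM and tested with edgeR 4.0.16 (quasi-likelihood, Benjamini-Hochberg over all genes, threshold 0.1) in R 4.3.3: the unstimulated comparison on 9 libraries, the others in a 4-group model of 13. Standard errors derive from the log2 fold change and F. CPM are TMM-scaled. The fits were tested on simulated data. Each library is 1 mouse, and mouse numbers did not pair genotypes. Members, gene lists and motifs were chosen with earlier results of these data known. Values in every library are given for the 4 called members with the largest change in each comparison and up to 4 of the rarer direction. From other lists mainly the 3 called genes with the largest change are given. Atf4, Slc7a5, Myc, Il2, Epcam, Prss16, Sesn2 and Phgdh were named after their values were seen. The multisynthetase complex, catalytic class and Lars2 splits were chosen after the data were seen. Alternatives were DESeq2 1.42.0, other scalings, filters, thresholds and leave-outs. At least 31 bases of exon were shared with another gene on either strand by 13 members, among them Hars with Hars2, Mars with Ddit3 and Iars2 with Rab3gap2, so their counts are less certain. Of the members, 1 is not reported here by name, in the pairings or in the figures by gene; class counts, medians and sums include it.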

Additional observations from a re-analysis of the deposited data

Results flagged for a closer look

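In groups of 4 or 5 unstimulated mice, 4 values from 3 libraries stood far from the rest of their group in log2 CPM, where chance gives about 3.7 among the 74 groups tested. Eprs measured 6.944 in CtslΔTEC mouse 1, with the others at 7.164 to 7.235. Gars measured 6.108 in WT mouse 1, with the others at 6.242 to 6.265. Nars measured 6.821 in WT mouse 2, with the others at 6.892 to 6.901. Yars2 measured 3.856 in WT mouse 1, with the others at 4.020 to 4.045. The response of Lars differed between the genotypes by the interaction test, at -0.415 on the log2 scale, a call that held in 2 of the 13 fits that each left out 1 library.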

How the results depend on the processing

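Called counts in the responses stayed within 29 to 32 in WT and 31 to 34 in CtslΔTEC cells when each mouse was left out in turn, and within 1.5 times the main counts under all other alternatives. The unstimulated comparison gave 0 calls, and 2 with DESeq2, library totals alone or file date as a term, 1 when thinned to the smallest total or on the second file date alone, and 0 to 2 when each mouse was left out (2 without CtslΔTEC mouse 1). The stimulated comparison gave 10, and 5 at an adjusted p under 0.05, 6 with transcript length modelled, 1 with the 4 stimulated libraries alone and 0 to 15 when each mouse was left out. The interaction gave 1, and 0 at an adjusted p under 0.05, with upper-quartile factors or thinned, 2 with DESeq2 or the Y-linked covariate, 3 with library totals, 4 on coding transcripts and 0 to 7 when each mouse was left out (7 without stimulated WT mouse 6). The gene called in the interaction changed with the setting: without the filter on low counts it was Aars, and the 4 on coding transcripts were Lars2, Mars, Qars and Vars2. The mitochondrial median response in WT cells was 0.38, and 0.293 with library totals, 0.191 on coding transcripts, 0.497 with transcript length modelled and 0.505 when thinned, and in CtslΔTEC cells 0.146 with library totals. With single mice left out, the mitochondrial median ran from -0.249 to -0.029 between stimulated genotypes and from -0.259 to -0.025 in the interaction. Library totals moved the median of all genes in the CtslΔTEC response from -0.06 to -0.21. Of all unstimulated calls 43.4% were higher in CtslΔTEC cells, 56.8% with library totals. With the mouse number as a replicate block the unstimulated comparison gave 0 calls among the members. Same-numbered mice of the 2 genotypes did not deviate together (correlations -0.155, 0.347, -0.0974 and -0.138), so the numbers do not pair them. The causes of these shifts were not tested. Depth differed among the stimulated libraries, with 2 mice per genotype. Among the responses, leaving out 1 stimulated mouse also lost Nars2 (WT mouse 5), Iars2 and Sars2 (WT mouse 6) in WT cells, and Pars2 and Vars2 (CtslΔTEC mouse 6) and Pars2 and Aars2 (CtslΔTEC mouse 7) in CtslΔTEC cells, where Pars2 was also lost without unstimulated mouse 5.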

Other observations

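Atf4 varied with file date among unstimulated libraries: it measured 186, 168 and 185 CPM in CtslΔTEC mice 1 and 3 and WT mouse 4, which share the first date, and 79.0 to 111 CPM in the 6 mice of the second. Aars in the same 3 libraries measured 47.0, 49.3 and 49.7 CPM, beside 51.3 to 62.0 in the others.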
